A study of Homo sapiens with 6 samples.

Results

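The regions described here were called open after ZnCl2 addition and not in untreated cells, when the open-region lists of all libraries were held to the same length. ATAC-seq, in which a transposase cuts accessible DNA, was performed on MCF10A cells, a non-tumorigenic human mammary epithelial line of wild-type genotype. After a 30 min pre-incubation in phosphate-free HHBSS, a HEPES-buffered salt solution, cells were left untreated (Control), or treated for 30 min with 30 µM ZnCl2 or with 50 µM TPA, the Zn2+ chelator tris(2-pyridylmethyl)amine. There were 2 libraries per condition and 6 in all, each with a list of open regions that HMMRATAC had called in that library alone, and each region carried a whole-number score. The methods call the replicates biological and the results call them technical, and all come from 1 cell line.

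From each list the regions with the highest scores on chromosomes 1 to 22 and X were kept, up to a common number that was 4 above the length of the shortest list. A region's place is its rank in its list, where place 1 has the highest score. Regions of the 6 lists that overlapped or touched were merged, which gave 26162 merged regions. A merged region was opened by ZnCl2 where both ZnCl2 lists and neither Control list held it, and 834 of the 26162 merged regions (3.19%) met this rule. The reverse rule, both Control lists and neither ZnCl2 list, gave 960 closed regions (3.67%), so the opened regions were not the larger of the sets. The same rules with the TPA lists gave 982 opened (3.75%) and 1182 closed (4.52%), and 11246 merged regions were open in all 6 lists. The members were thus chosen by the ZnCl2 and Control calls, so their places in those 4 lists are a description and carry no test.

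Zinc ions hold the folds of zinc-finger proteins, the largest class of human transcription factors, and transporters and metallothioneins set how much labile zinc a cell holds. The metal-sensing factor MTF1 binds short metal response elements and is known for raising metallothionein genes when zinc rises. CTCF, a zinc-finger protein that anchors chromatin loops, and RNA polymerase III, which transcribes tRNA genes, both leave open sites that ATAC-seq detects.

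The next sequences, all from hg38, are those the results turn on. The first set shows 3 of the members that stood first by their mean place in the ZnCl2 lists among those with a CTCF core (CCACNAGGG, searched on both strands) in their central 300 bp and no repeated piece, save 1 chromosome that was left out. Each is printed on the strand that holds the core, with the core in capitals.
PTPN23 nearest, chr3:47420425-47420463, plus strand: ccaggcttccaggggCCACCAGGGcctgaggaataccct
SH3BP1 nearest, chr22:37643450-37643488, plus strand: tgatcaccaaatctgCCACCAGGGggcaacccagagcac
PARVB nearest, chr22:44037860-44037898, minus strand: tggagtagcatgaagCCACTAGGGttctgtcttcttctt

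The second set shows tRNA genes inside members without repeated pieces, with 20 bp on either side and the gene in capitals. RefSeq gives their positions, and each is printed on the strand that holds the B box word GTTCNANNC, the internal promoter element bound by TFIIIC.
TRC-GCA17-1 (cysteine), chr7:149691161-149691272, minus strand: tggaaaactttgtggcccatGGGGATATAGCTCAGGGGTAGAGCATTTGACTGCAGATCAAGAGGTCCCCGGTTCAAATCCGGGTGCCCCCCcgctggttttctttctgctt
TRL-CAA1-2 (leucine), chr6:28941033-28941177, plus strand: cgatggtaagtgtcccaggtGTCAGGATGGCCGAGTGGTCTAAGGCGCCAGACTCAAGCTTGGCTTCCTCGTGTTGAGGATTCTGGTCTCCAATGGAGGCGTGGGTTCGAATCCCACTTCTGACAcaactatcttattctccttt
TRF-GAA1-6 (phenylalanine), chr19:1383342-1383454, minus strand: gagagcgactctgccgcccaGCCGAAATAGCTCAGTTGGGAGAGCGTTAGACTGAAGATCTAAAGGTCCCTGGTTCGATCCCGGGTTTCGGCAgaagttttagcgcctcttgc
TRP-AGG2-5 (proline), chr14:20609316-20609427, minus strand: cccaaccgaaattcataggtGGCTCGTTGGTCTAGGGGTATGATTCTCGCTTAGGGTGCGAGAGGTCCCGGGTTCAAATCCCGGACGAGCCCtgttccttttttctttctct

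The third set shows the central 200 bp of the 2 members with the best mean place among those that had no Control call and resembled the mitochondrial genome. Capitals mark runs of at least 12 letters that both windows hold.
PAGE5 nearest, chrX:55183121-55183320, plus strand: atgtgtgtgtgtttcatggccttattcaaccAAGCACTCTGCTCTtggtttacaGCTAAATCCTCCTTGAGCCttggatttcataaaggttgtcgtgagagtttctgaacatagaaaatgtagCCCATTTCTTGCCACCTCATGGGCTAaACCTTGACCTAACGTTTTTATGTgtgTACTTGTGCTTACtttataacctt
TEKT4 nearest, chr2:94899062-94899261, plus strand: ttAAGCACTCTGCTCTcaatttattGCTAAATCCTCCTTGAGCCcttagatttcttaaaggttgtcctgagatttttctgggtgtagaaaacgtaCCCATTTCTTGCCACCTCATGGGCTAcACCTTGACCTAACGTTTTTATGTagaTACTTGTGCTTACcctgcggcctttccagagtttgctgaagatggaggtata

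The last set shows the central 200 bp of 2 protein-coding promoters among the members, those with the best mean place that had no repeated piece and no call in the used TPA lists, with the same chromosome left out. GC boxes (GGGCGG, on either strand) are in capitals.
ANKDD1A, chr15:64911776-64911975, plus strand: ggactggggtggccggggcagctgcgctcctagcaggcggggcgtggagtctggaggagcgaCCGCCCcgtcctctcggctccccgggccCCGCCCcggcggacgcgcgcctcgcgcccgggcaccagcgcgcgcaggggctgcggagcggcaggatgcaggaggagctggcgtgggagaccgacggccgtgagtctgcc
GLIPR2, chr9:36136531-36136730, plus strand: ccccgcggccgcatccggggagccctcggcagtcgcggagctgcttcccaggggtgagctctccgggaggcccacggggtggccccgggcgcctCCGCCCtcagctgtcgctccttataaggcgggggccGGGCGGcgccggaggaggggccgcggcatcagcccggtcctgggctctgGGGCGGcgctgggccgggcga

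The libraries differed in yield before the lists were cut. Whole lists held 25025 and 44637 regions in the Control libraries, 35900 and 41374 in the TPA libraries, and 38055 and 18883 in the ZnCl2 libraries. ZnCl2 replicate 2 therefore entered with its whole list, down to the lowest score of 30, while Control replicate 2 was cut at a score of 60. The deposited lists hold no read counts. Sequencing depth is thus not known, and the lists can be compared only by place. Of 9 basal mammary epithelial markers, 1 had an open region near its start site in all 6 lists, and 2 (KRT14 and TP63) had one in no list. The 8 markers of other cell types had one in no list.

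Most members were regions of low rank that the cut placed on opposite sides. Their median place was 15147 in ZnCl2 replicate 1 and 15052 in ZnCl2 replicate 2, and 697 of the 834 (83.6%) lay past place 10000 in both ZnCl2 lists. In the whole Control lists, 783 members (93.9%) had a call past the cut, in 449 cases in both libraries. These calls had a median place of 21824 over 452 members in Control replicate 1 and of 23148 over 780 members in Control replicate 2. The 51 remaining members had no call in either whole Control list. Between the worse ZnCl2 place and the better Control place the median gap was 5847 places, with quartiles of 3687 and 8678, and 64 members had a gap under 2000. At the edge of the rule, a region over an exon, with SGIP1 as its nearest protein-coding start site, was a member. Its ZnCl2 places were 18879 and 18277 and its Control places 20234 and 24504. An exonic region with TNFRSF25 as its nearest protein-coding start site fell just outside the rule. It had ZnCl2 places of 18891 and 18344 and a call in only 1 Control list, at place 32839. At the other edge the STAG2 promoter was a member with Control places of 18889 and 21195. An exonic region with IL1RN as its nearest protein-coding start site was not, with Control places of 18877 and 21589. Without the cut 85 regions met the rule, and with lists of 10000 regions 555 did. Leaving out 1 library asks less of a region and gave 1460 without Control replicate 1, 1842 without Control replicate 2, 2048 without ZnCl2 replicate 1 and 1995 without ZnCl2 replicate 2.

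**Figure D1:**
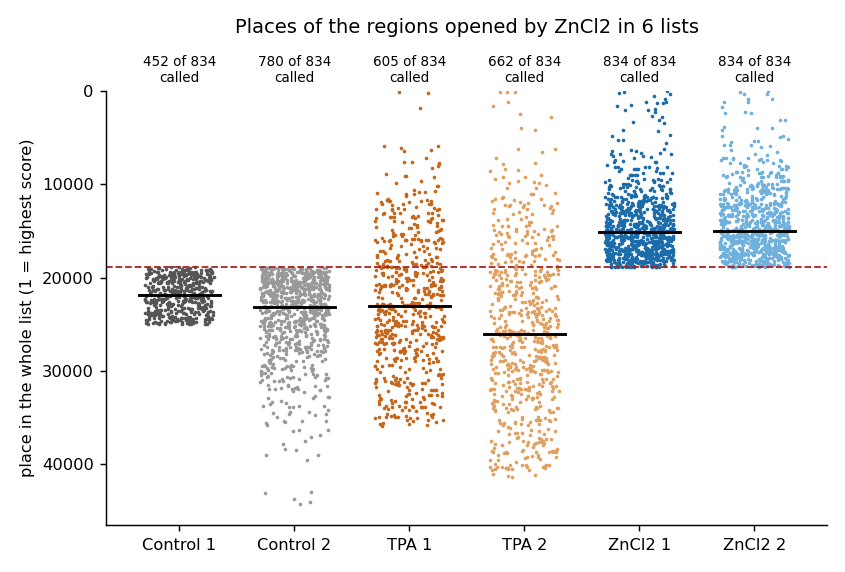
Place of each of the 834 regions opened by ZnCl2 in the whole list of each of the 6 libraries (1 point per called region, vertical axis with place 1 at the top, black line at the median, dashed line at the cut). The ZnCl2 points lie above the dashed line and the Control points below it because the rule put them there. The TPA points, from lists that the rule used only in the merging, lie on both sides.

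Over their whole span the members were GC-rich. Their mean GC content was 52.9% ± 7.71 (SD over 834 regions), against 43.8% ± 6.17 over the 960 closed regions and 49.8% ± 7.61 over all merged regions. Regions open in all 6 lists had 50.8% ± 6.52. Over the central 300 bp the members had 56.3%, slightly below the 56.8% of the regions open in all 6 lists. In that window all merged regions had 54.1% and closed regions 45.3%. Regions opened by TPA had 46.0% ± 6.60 and those closed by TPA 54.4% ± 6.99, so in GC content the regions opened by ZnCl2 lay nearer to those closed by TPA. These comparisons share the Control lists. Read by band, 1.57% of merged regions with up to 40% GC were opened by ZnCl2 and 10.8% were closed. Above 65% GC, 7.65% were opened and 0.459% closed. The share opened was higher in each successive band, and it was above the share closed in every band over 50% GC.

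**Figure D2:**
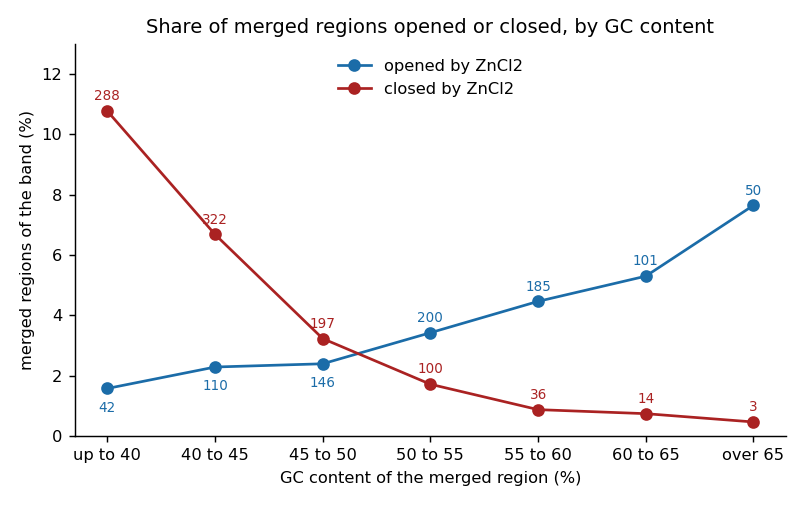
Percent of the merged regions in each band of GC content that were opened (blue) or closed (red) by ZnCl2, with the number of regions beside each point. The share opened goes from 1.57% in the lowest band to 7.65% in the highest, and the share closed from 10.8% to 0.459%.

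The GC content of the members did not come with a GC-rich ZnCl2 list as a whole. Over all regions used, the mean GC content was 53.98% and 51.05% in the Control lists and 53.9% and 52.1% in the ZnCl2 lists. Both ZnCl2 values lay between the Control values. The difference of 0.50 percentage points between the group means (53.02% ± 1.26 for ZnCl2 against 52.51% ± 2.07 for Control, SD, n = 2) was smaller than the spread between replicates (two-sided exact permutation test, p = 1.00, where 2 against 2 allows no p below 0.33). Its sign turned without Control replicate 2 (-0.96) and without ZnCl2 replicate 1 (-0.39). The TPA lists had 52.1% and 51.6%. The ratio of observed to expected CpG in the lists was 0.469 and 0.435 for Control and 0.473 and 0.449 for ZnCl2 (exact permutation test, two-sided, p = 0.67), so these groups overlapped as well. The lists hold the members' own calls, so these tests are not independent of the rule.

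Over all members, GC-rich did not mean CpG-rich, though the order differed within the position classes given below. Members had a higher median ratio of observed to expected CpG than all merged regions between genes (0.252 against 0.216). It was also slightly higher in introns (0.217 against 0.205) and over exons (0.301 against 0.296). At promoters it was lower (0.554 against 0.609). Without regard to class, the median ratio was 0.294 in members, 0.203 in closed regions and 0.315 over all merged regions. A ratio above 0.6 was found in 138 members (16.5%), against 23.6% of all merged regions. The members were narrow beside the constant regions, with a median width of 1790 bp (320 to 31490) against 3012.5 bp for regions open in all 6 lists. The closed regions had a median width of 1830 bp.

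By position, 189 members (22.7%) reached into a promoter, taken as 1000 bp on the upstream side of any start site. Another 192 (23.0%) overlapped an exon, 206 (24.7%) lay in introns and 247 (29.6%) lay between genes. Promoters made up 36.6% of all merged regions and 53.1% of the regions open in all 6 lists, so members were less often at promoters and more often over exons, which held 16.2% of all merged regions. Closed regions lay in introns in 37.2% of cases and at promoters in 12.9%. Members at promoters had a mean GC content of 57.7% ± 6.80 (SD over regions), those over exons 54.0% ± 7.28, those between genes 51.1% ± 7.67 and those in introns 49.6% ± 6.47. Within classes the share opened differed with GC content, though not in every band. From 55 to 60% GC, 8.29% of merged regions in introns were opened, against 1.71% of those from 40 to 45%. Between genes these shares were 8.94% and 2.91%. Over exons they were 6.12% and 3.22%, and at promoters 2.29% and 1.11%. Promoters of up to 40% GC (2.54%, 3 of 118) and introns over 65% GC (4.76%, 1 of 21) went against this order. So did exons (2.61%) and promoters (0.793%, 16 of 2017) from 45 to 50%, and regions between genes from 60 to 65% (8.41%). Members more than 100 kb from any protein-coding start site numbered 150 (17.99%), against 34.1% of closed regions and 19.2% of all merged regions. The promoter share depended on the list length, with 41.1% of the 555 regions from lists of 10000 and 12.9% of the 85 from whole lists.

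**Figure D3:**
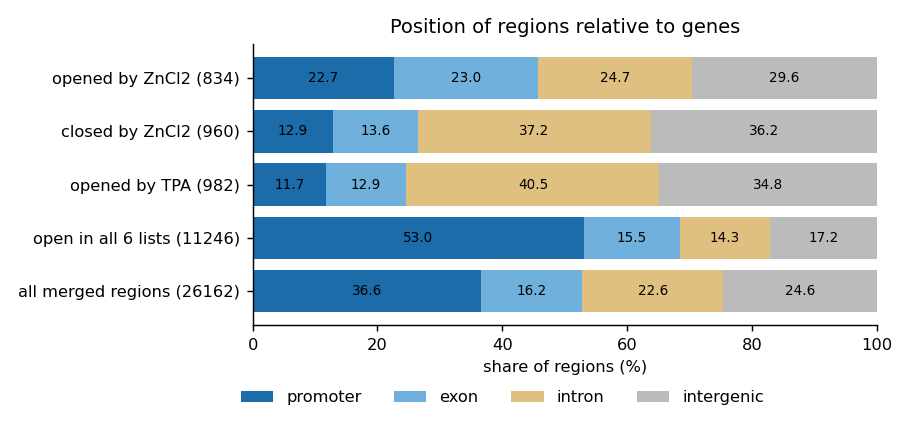
Share of regions that overlapped a promoter, else an exon, else lay in an intron or between genes (horizontal axis, percent; number of regions in brackets). The 834 regions opened by ZnCl2 split almost evenly over the 4 classes, from 22.7% at promoters to 29.6% between genes, while 53.1% of the regions open in all 6 lists were at promoters.

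Chromosome ends held more members than their share. Within 5 Mb of a chromosome end lay 125 members (14.99%), against 4.27% of closed regions and 10.5% of all merged regions. In the outermost 1 Mb, 40 of 646 merged regions (6.19%) were opened and 9 (1.39%) closed, and these merged regions had a mean GC content of 57.0%. From 20 Mb inward the shares were 2.94% and 4.14%, at a mean GC content of 48.6%. Distance from the end and GC content moved together, and their parts were not separated. Over all regions used, the share within 5 Mb of an end was 11.9% and 11.9% for ZnCl2, 11.1% and 10.4% for Control and 10.5% and 10.1% for TPA. Both ZnCl2 lists lay above both Control lists, by 1.17 percentage points on average. A two-sided exact permutation test gave p = 0.33, the lowest that 2 against 2 allows. By the rule, the 125 members near an end are in both ZnCl2 lists and in neither Control list. This test is therefore not independent of the rule. By chromosome, 5.52% of merged regions on chromosome 22, 5.45% on X, 4.79% on 15 and 4.57% on 16 were opened, and the lowest share was 2.41%, on chromosome 20. Adjacent merged regions were both opened in 19 pairs and both closed in 51.

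The TPA lists, which the rule used only in the merging, held few of the members. Of the 834, 617 (74.0%) were in neither TPA list, 120 (14.4%) in 1 and 97 (11.6%) in both. Over all merged regions these shares were 21.7%, 17.5% and 60.8%. TPA replicate 1 held 174 members (20.9%) and TPA replicate 2 held 140 (16.8%). Closed regions showed the reverse, with 669 of 960 (69.7%) in both TPA lists. The rule asked for regions that the Control lists lacked, so a member missing from the TPA lists as well had lacked a call in 4 of 6 libraries. In whole TPA lists 605 and 662 members had a call, 575 in both and 142 in neither, so most members were present after TPA at low rank, as in the Control lists. The share in either TPA list, 26.02% of members, came to 38.6% with Control replicate 1 left out and to 45.4% with Control replicate 2 left out, which each let regions into the set that 1 Control list held.

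GC content differed with the number of TPA lists, in members and in all merged regions alike. Those in neither TPA list had a mean GC content of 53.9% ± 7.70 (SD over 617 regions), those in 1 had 50.8% ± 7.17 (120) and those in both 48.8% ± 6.51 (97). Over all merged regions the means were 52.6%, 48.05% and 49.4%. The AP-1 word TGANTCA, bound by FOS and JUN proteins, was in 48.5%, 71.7% and 82.5% of them, searched on both strands over the whole region, against 51.6%, 68.8% and 71.9% of all merged regions. In the central 300 bp it was in 15.7%, 29.2% and 27.8% of the members, against 18.6%, 31.9% and 21.7% of all merged regions. The highest members called in both TPA lists included the promoter of NEMF, a ribosome quality-control factor, with ZnCl2 places of 9302 and 4815, TPA places of 10699 and 17205, and Control places of 23930 and 21371. The ANXA8 promoter, of an annexin gene, had ZnCl2 places of 6450 and 10459 and TPA places of 1825 and 1587, with no Control call, and 6 of its 10 tested pieces were repeated elsewhere in the genome. A region between genes at chr10:264101-265450 was placed far higher after TPA, at 80 and 122, than after ZnCl2, at 11310 and 7446, and its Control places were 24821 and 25388. It was 1 of 31 members whose places in both TPA lists were better than in both ZnCl2 lists. Regions on chromosomes 8 and 9 without Control calls, at chr8:7913201-7914140 and chr9:97012631-97014160, completed the first 5, with TPA places between 2839 and 7739, and each had 4 repeated pieces.

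The first members by place differed from the rest in sequence. Each merged region was sampled by 10 pieces of 50 bp, and a piece was repeated where it occurred elsewhere in hg38. Among the first 50 members by mean ZnCl2 place, 39 (78.0%) had a repeated piece and 31 had no call in either whole Control list. Among members 51 to 200 these counts were 43 (28.7%) and 10 of 150, and among the other 634 they were 172 (27.1%) and 10. Of the 51 members with no Control call, 44 (86.3%) had a repeated piece and 34 (66.7%) had at least 5. Of the 783 with a Control call, 210 (26.8%) had one, close to the 26.4% of all merged regions. Reads from repeated sequence cannot be placed with certainty, and the part of this in the members' calls was not tested.

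**Figure D4:**
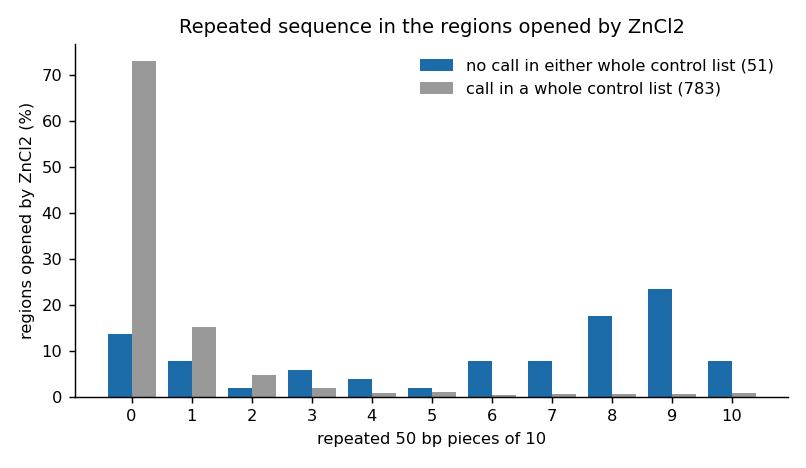
Percent of the regions opened by ZnCl2 (vertical axis) by how many of their 10 sampled 50 bp pieces occurred elsewhere in hg38 (horizontal axis), for the 51 members with no call in either whole Control list (blue) and the 783 with one (grey). Of the 51, 34 had at least 5 repeated pieces, against 31 of the 783.

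Nuclear copies of mitochondrial DNA were among the first members. Aligned with blastn, 6 of the 834 members matched the mitochondrial genome, against 1 of the 960 closed regions and 59 of all 26162 merged regions. In 5 of the 6 the match lay in a mitochondrial rRNA gene (MT-RNR1 or MT-RNR2), as it did in 33 of the 59. The member nearest to PAGE5, chrX:55182941-55183500, matched over 541 bp at 81.2% identity and had ZnCl2 places of 80 and 156. The member nearest to TEKT4, chr2:94898882-94899441, matched over 433 bp at 84.6% and had ZnCl2 places of 235 and 879. Neither had a call in any other whole list. Their matches overlapped in MT-RNR1, and 95 of the 200 bp printed above for each fell in runs that both held. The other 4 were on chromosomes 5, 9, 13 and 17, with ZnCl2 places from 1139 to 14102, and the one on chromosome 9 also had a call in Control replicate 2, at place 21296. No TPA list held any of the 6. Among the 59 matching merged regions, the used lists held 16 and 31 in the Control libraries, 12 and 20 in the TPA libraries, and 30 and 40 in the ZnCl2 libraries. The Control value of 31 exceeded the lower ZnCl2 value, so these groups overlapped, and no list held a region on the mitochondrial chromosome itself.

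With repeated sequence and mitochondrial matches set aside, 3 members remained that had no Control call. They lay in an intron of the nociceptin receptor gene OPRL1 (chr20:64087741-64088860, ZnCl2 places 11718 and 14716), over an exon of LINC02749 (chr11:4180351-4182870, 13463 and 13005) and over an exon of ACOX3, a peroxisomal oxidase gene (chr4:8408821-8411920, 17183 and 12125). The OPRL1 region was called in 1 TPA list, at place 41365, and the other two in neither. These were therefore present in the ZnCl2 lists alone, or nearly so, but not at high rank.

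The remaining members at the head of the order were mostly of the repeated kind. The first of all, chr1:161454031-161454620, held the glutamate tRNA gene TRE-CTC1-3, with ZnCl2 places of 27 and 33 and a place of 4143 in TPA replicate 2 only. A pseudogene of the POM121 family, POM121L15P on chromosome 22, had places of 292 and 337 and all 10 pieces repeated. A region on chromosome 9 more than 100 kb from any protein-coding start site (519 and 1234) and one in an intron of the formin gene FMN2 (1318 and 1189) followed, with 9 and 3 repeated pieces. A region beside the opsin gene OPN1MW2 on X had places of 1957 and 825 and was placed higher in TPA replicate 2, at 104. Exons of RPH3AL (1289 and 1746), a Rab effector, and of the translation factor EIF3C (1165 and 2326) had 3 and 10 repeated pieces, and EIF3C was called in Control replicate 2 at place 23635. Beyond 100 kb from any protein-coding start site, the first members included chr22:11701031-11701540 (3395 and 2409) and chr21:8411401-8416000 (2066 and 4170), each with 9 repeated pieces. Pseudogenes overlapped 45 members (5.40%), against 3.85% of all merged regions.

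At equal list length, tRNA genes were covered more often in the ZnCl2 lists. This class was looked at after its values had been seen, and no test was made of the members. Of the 834 members, 13 (1.56%) overlapped 17 of the 443 tRNA genes that RefSeq lists, against 140 of all merged regions (0.535%) and none of the 960 closed regions. The used lists covered 131 and 145 of the 443 genes in the Control libraries, 144 and 147 in the TPA libraries, and 171 and 181 in the ZnCl2 libraries. Both ZnCl2 values lay above the other 4. By the rule, both ZnCl2 lists held the 13 members and neither Control list did, so these counts are not independent of the rule. In whole lists the order was lost, with 158 and 235 for Control, 232 and 240 for TPA, and 252 and 181 for ZnCl2, where the last came from the short list of ZnCl2 replicate 2. The count of 13 was 4 with whole lists, 7 with lists of 10000, 28 without ZnCl2 replicate 1 and 20 without ZnCl2 replicate 2. Repeated pieces were found in 6 of the 13 members, and 5 of the 13 were on chromosome 6, in the arm that also holds the histone gene clusters.

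Among the tRNA members without repeated pieces, the cysteine gene TRC-GCA17-1 on chromosome 7 had ZnCl2 places of 7544 and 9214, Control places of 20625 and 22806, and TPA places of 16574 and 24546. The member with TRL-CAA1-2 and TRQ-CTG1-3 on chromosome 6 had ZnCl2 places of 16231 and 7539, Control places of 22816 and 20915, and TPA places of 14172 and 19448. The member with TRF-GAA1-6 and TRN-GTT2-6, at the promoter of the mitochondrial complex I gene NDUFS7, had 15499 and 11271 after ZnCl2 and was called in 1 Control list, at 32796. The ZnCl2 places were thus the better ones against Control in each, as the rule required, whereas TPA places lay between or overlapped. In the used TPA lists, 6 of the 13 were held by replicate 1, 1 by replicate 2 and 6 by neither. The B box word GTTCNANNC was found on either strand in all 17 of these genes, in 391 of all 443 (88.3%) and in 2.22% of the central 75 bp windows of all merged regions.

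**Figure D5:**
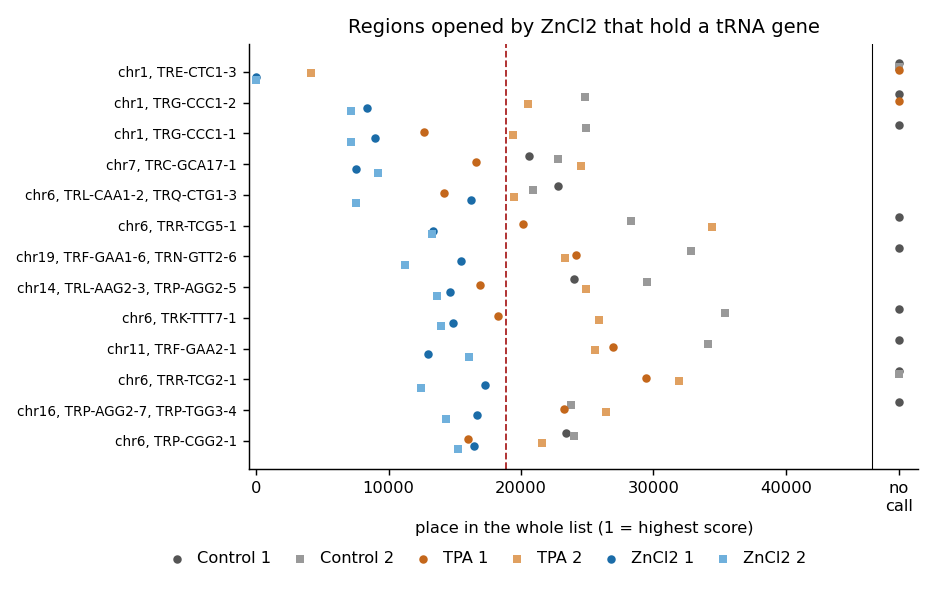
Place in each of the 6 whole lists (horizontal axis, place 1 at the left, dashed line at the cut, "no call" at the right) of the 13 regions opened by ZnCl2 that overlap a tRNA gene, 1 row per region. The ZnCl2 points lie left of the dashed line by the rule, and the TPA replicate 1 points of 6 rows do as well.

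The frequency of the CTCF core depended on the window. In the central 300 bp it was found in 28 members (3.36%, 95% exact binomial interval 2.24 to 4.82), against 3 closed regions (0.313%) and 1.57% of all merged regions. By GC band the counts of members were small. In members of up to 45% GC the core was found in 2.63% (4 of 152), against 0.694% of all merged regions of that band. Above 60% GC these shares were 5.30% (8 of 151) and 2.73%. In the band from 45 to 50% the core was not more frequent, with 1.37% (2 of 146) against 1.44%. Over whole regions it was found in 14.7% of members, 4.38% of closed regions, 14.2% of regions closed by TPA, 12.49% of all merged regions and 16.1% of those open in all 6 lists. The members were thus above the closed regions in both windows, and over whole regions they were below the regions open in all 6 lists. The whole-region share was 10.7% without ZnCl2 replicate 1, 11.4% without ZnCl2 replicate 2 and 9.41% with whole lists. Intervals cover counting error only, and a match of these letters is not a bound site.

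The member nearest to SH3BP1, which carries one of the cores printed above, had ZnCl2 places of 11631 and 13958, Control places of 20396 and 25871, and TPA places of 22779 and 35544. None of the 3 printed cores lay in a member that the used TPA lists held. Metal response elements were not more frequent in members: TGCGCNC was in 10.2% of the central windows against 11.5% of all merged regions, and TGCACNC in 16.1% against 15.5%. The AP-1 word was in 19.1% of members, 32.7% of closed regions and 22.8% of all merged regions. Its order turned with GC content: up to 45% GC it was in 30.9% of members against 40.6% of all merged regions, from 50 to 55% in 20.5% against 14.7% and over 60% in 8.61% against 5.58%. The GC box was in 27.7%, 10.0% and 28.5%. Within GC bands the GC box was in 34.6% of members against 50.6% of all merged regions from 55 to 60% GC, and in 4.61% against 3.87% up to 45%.

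Of the 189 promoters, 151 belonged to protein-coding genes. First among them by place after NEMF and ANXA8 was ANKDD1A, with ZnCl2 places of 7128 and 10532, Control places of 20522 and 21632, and no TPA call. GLIPR2, a Golgi-associated gene, had 9795 and 8640, with Control places of 22899 and 22574 and TPA places of 34913 and 38840. TTPA, which encodes the vitamin E transfer protein, had 12938 and 5951, was called in 1 Control list at 20397 and in no TPA list. All 3 were thus missing from both used TPA lists, and TTPA was placed far apart by the ZnCl2 libraries themselves.

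Genes of zinc handling had few merged regions and few members. Of all merged regions at promoters, 189 of 9584 (1.97%) were opened, so short lists could hold none by that share alone. None of the 5 merged regions at metallothionein or MTF1 promoters was opened, and 2 of the 5 were open in all 6 lists. None of the 6 at SLC30A zinc exporter promoters was opened, and 5 of the 6 were open in all 6 lists. The rule cannot call a region opened where a Control list holds it, even if its signal rose. From read counts in these libraries, the paper reports increased accessibility with ZnCl2 over MT1E and MT2A. Of 12 merged regions at promoters of SLC39A zinc importers, 1 was opened, at SLC39A2. It had ZnCl2 places of 18849 and 15788, Control places of 20376 and 23957, and no TPA call. An intron of SLC39A12 held another member, with ZnCl2 places of 16183 and 14013 and Control places of 22734 and 21305.

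Stress-response promoters were not among the members, in lists too short for the 1.97% of all promoter regions that were opened to give many. No promoter was opened among 21 merged regions of immediate early genes, among 8 of heat shock genes or among 7 of NRF2 target genes. All of the 21, all of the 8 and 5 of the 7 were open in all 6 lists, so the rule could not call those opened. Within 10 kb of immediate early genes 4 of 53 merged regions were opened, where 3.19% of all merged regions were, and the difference was not tested. The 4 lay in an intron of FOSL2 (ZnCl2 places 14318 and 16892), beside FOSL1 (18859 and 16970), both AP-1 subunits, and near DUSP5 (16837 and 12600), a phosphatase, and ATF3 (14295 and 15959). The FOSL1 region was in both TPA lists, at 11753 and 11577, and the other 3 in neither.

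Promoters of zinc-finger genes were opened about as often as promoters in general, of which 1.97% (189 of 9584) were opened. Of 327 merged regions at promoters of C2H2 zinc-finger genes, 6 (1.83%) were opened and 5 closed, while most of the rest were open in all 6 lists. The 6 were at ZNF362, ZNF563, ZNF846, ZSCAN21, ZSCAN26 and the shared promoter of ZNF432 and ZNF841. ZSCAN21 had the best places, 12223 and 8351 after ZnCl2, with TPA places of 10859 and 13063 and Control places of 22335 and 26474. Among KLF and SP factors 0 of 16 promoters were opened, with 1 member in an intron of KLF13 (15773 and 15548). Among HOX genes 0 of 5 were, with 1 member in an intron of HOXB3 (17478 and 15129), and among clustered protocadherins 0 of 3. Of these 16, 5 and 3 promoter regions, 10, 3 and 2 were open in all 6 lists, where the rule cannot call a region opened.

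Chromatin proteins that bind zinc, and the cohesin subunits listed with them, gave 2 of 16 promoters (12.5%), against 1.97% of all promoter regions. KMT2D, a histone H3K4 methyltransferase, had ZnCl2 places of 14299 and 10601, Control places of 22765 and 20258, and TPA places of 25707 and 21936. STAG2, a cohesin subunit, had ZnCl2 places of 17152 and 12110, and its Control place of 18889 was the closest to the cut among members. Exons of TET3 (16028 and 17389), a methylcytosine dioxygenase, and of STAG1 (16365 and 18574), the paralogous cohesin subunit, held 2 more members. Within 10 kb of the genes of this list 4 of 33 merged regions were opened, where 3.19% of all merged regions were. The lists are short, and no list's share was tested against that of all merged regions.

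The widest members took their full width from single calls of 1 TPA library. The region at chr16:81099701-81131190, over PKD1L2, spanned 31490 bp because TPA replicate 2 had 1 call of that width, while the ZnCl2 calls were 1460 and 1910 bp. The region over ZNF609 (29450 bp) and that at LINC02323 (15410 bp) likewise took their width from 1 call of TPA replicate 2. The ZnCl2 calls in them were between 1070 and 2150 bp wide. At LINC02323, calls were also wide in Control replicate 2 (8850 bp) and TPA replicate 1 (7630 bp). Values per merged region, such as GC content and class, describe the merged span and not the ZnCl2 calls alone.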

How the data were processed

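ATAC-seq was measured in 6 MCF10A libraries, 2 each of untreated, TPA-treated and ZnCl2-treated cells. The authors trimmed reads with BBDuk, mapped them to hg38 with HISAT2 (2.1.0 in the submitters' processing notes) and called open regions per library with HMMRATAC, whose version is not given in the sources used here. The deposited value is the score of each region, a whole number of at least 30, used here only to rank regions within a library; ties were broken by width, then position. Their later merging, blacklist filter and read counting were not used here, so blacklisted regions remain.

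Lists were cut at a common length, 4 regions above that of the shortest (18883), and merged at 1 bp of overlap or contact (Python 3.11.15, pandas 2.3.3, pysam 0.24.0). Genes came from GENCODE 44 limited to the 40050 of 62062 genes (64.5%) that RefSeq lists, tRNA genes from RefSeq (GRCh38.p14), and the hg38 sequence gave GC content, words and repeated pieces (50 bp, exact, either strand, 10 per region). Mitochondrial matches used BLAST 2.17.0 (E-value 1e-10). Library values were compared by two-sided exact permutation tests (SciPy 1.17.1). Procedures were tested on simulated data. Shares of regions have no test, since regions are not replicates. Named were the first members by mean ZnCl2 place in fixed categories, the widest 3 and those at fixed gene lists. The members and lists were chosen with earlier results of these data known. Some results are not reported here.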

Additional observations from a re-analysis of the deposited data

Results flagged for a closer look

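Regions on contigs outside the assembled chromosomes were in no comparison above. They made up 0.530% of all called regions in ZnCl2 replicate 1 (203 of 38272) and 0.871% in ZnCl2 replicate 2 (166 of 19053), above both Control values of 0.426% (107 of 25138) and 0.408% (183 of 44824). The TPA libraries had 0.200% and 0.210%, below both. The lists differ in length, and the part of that in these shares was not tested.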

How the results depend on the processing

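The number of opened regions, 834, was within 1.5 times of itself without merging (878), with a list required to cover 50% of a region (1029), without regions holding a repeated piece or a mitochondrial match (575, chosen after seeing the data) and without those lacking a Control call (783, likewise). It was 85 with whole lists, 555 with lists of 10000, and 1460 to 2048 with 1 library left out. The replicate numbers were not taken as pairs, since same-numbered deviations of places correlated at 0.029 between Control and ZnCl2, 0.042 between TPA and ZnCl2 and 0.146 between Control and TPA (15861 regions). Comparing within replicate numbers (the replicate block) gave 3125 regions on average, since only 1 list of each kind was then asked for, with 36.4% in either TPA list. It also gave 31 regions over a tRNA gene (13 without it) and a CTCF core in 11.99% (14.7%), and left the GC, promoter and chromosome-end values within their spread or interval.

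The mean GC content of 52.9% became 51.4% with whole lists, 54.7% with lists of 10000, 56.3% over the central 300 bp and 51.0% to 54.1% with 1 library left out. The promoter share of 22.7% became 12.9%, 41.1%, and 18.1% for protein-coding genes only, and 16.8% to 28.9% with 1 library left out. The share in either TPA list, 26.02%, became 19.9% under the 50% rule, 83.0% against whole TPA lists and 23.2% to 45.4% with 1 library left out. Over the central 300 bp the CTCF core was in 3.36% of members and the AP-1 word in 19.1%, against 14.7% and 55.8% over whole regions.

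Between lists, the ZnCl2 minus Control difference in mean GC content ranged from -0.96 to 1.97 with 1 library left out (-0.39 without ZnCl2 replicate 1), and that in the CpG ratio from -0.0081 to 0.027 (-0.0027 without ZnCl2 replicate 1). The difference near chromosome ends stayed positive, from 0.84 to 1.502 percentage points. These differences include the members' own calls, so they are not independent of the rule. Depth is unknown, and 2 libraries per group allow no exact p below 0.33.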
